A study of Mus musculus with 4 samples.

Results

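The genes described here are Penk, Nrgn, Dgki, Plek, Serpina3g, Exph5, Chst11, Setbp1 and Dscam, 9 of the 31053 genes counted. They were listed because they were near absent from T cells of control skin and present in T cells of skin tumors. The rule had no numeric threshold. Their levels in control and tumor T cells are therefore given as a description and without a test. Tests were kept for natural killer (NK) cells and for cells outside the T lineage. Differences between cell types within the tumors were also tested. They are read as a description, since tumor T cell levels took part in the choice. Set against the libraries, the description did not hold everywhere. Regulatory T cells (Treg) of control skin carried Penk and Setbp1, no Treg held an Exph5 transcript, Dgki was near absent from tumor CD8 T cells, and Plek and Chst11 were found at a low level in control T cells. Dendritic epidermal T cells of control skin, which were gated apart, carried Nrgn.

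CD45+/DAPI- immune cells were sorted from 2 control skins and 2 skin tumors of C57/BL6 mice, each of which gave 1 library of droplet-captured 3′ RNA. Control skin came from mice that received no tumor cells. Tumors grew on the flank of mice from injected cells of 2323, a line established from a tumor graft of a mouse skin cancer model. The study injected female and male mice. All 4 libraries used here had the transcript pattern of male cells, with Y-linked RNA and almost no Xist. All 4 libraries are labelled C57/BL6 by genotype, and both tumors rest on 1 line. Mice were injected at 8 to 10 weeks of age and their tumors taken 2 weeks later. The labels do not give the sex or cage of the mouse behind each library, and p-values measure the spread between 2 libraries a group.

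Several of these genes are better known outside T cells. Penk encodes the precursor of the enkephalins, opioid peptides made by neurons and by some T cells. Nrgn encodes neurogranin, a neuronal protein that binds calmodulin, and Dgki encodes diacylglycerol kinase iota, one of the enzymes that remove the diacylglycerol made after T cell receptor signaling. Plek encodes pleckstrin, a protein kinase C substrate of platelets and leukocytes. Serpina3g is an intracellular serpin that inhibits cathepsins and is induced by interferon gamma. Exph5 binds Rab27 on secretory vesicles, Chst11 sulfates chondroitin chains, Setbp1 is a nuclear protein that binds SET, and Dscam is an adhesion molecule of the immunoglobulin superfamily.

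In GRCm38 with GENCODE vM21, Penk lies at chr4:4133531-4138819 (minus strand), Nrgn at chr9:37544492-37552904 (minus), Dgki at chr6:36846022-37300184 (minus) and Plek at chr11:16971206-17052381 (minus). Serpina3g lies at chr12:104236245-104241939 (plus), Exph5 at chr9:53301670-53377514 (plus) and Chst11 at chr10:82985498-83195900 (plus). Dscam lies at chr16:96590840-97170752 (minus). Dscam spans 580 kb and Dgki 454 kb with far shorter exonic sequence, and how intronic reads were counted is not given in the sources used here. None of the 9 overlaps another gene on its strand, and Penk, Dgki, Plek, Chst11 and Dscam overlap 1 to 3 genes on the opposite strand. Serpina3g belongs to a cluster of near-identical serpin genes, so reads could be split or dropped among copies and its levels are uncertain.

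Promoters of 7 of the 9 genes were taken from RefSeq (GRCm38.p6), and those of Penk and Setbp1 were not searched. The 250 bases before the start site are printed, from 5′ to 3′ on the gene's strand, for the 3 genes that held a match to any of 6 motifs searched on both strands, because these genes were higher in different sets of tumor cells. Capitals mark the matches. The windows follow the RefSeq start sites. Among the printed genes these differ from the GENCODE starts for Serpina3g and Plek and match for Exph5. The Plek window lies inside the GENCODE span given above.
Serpina3g (chr12:104235897-104236146, plus): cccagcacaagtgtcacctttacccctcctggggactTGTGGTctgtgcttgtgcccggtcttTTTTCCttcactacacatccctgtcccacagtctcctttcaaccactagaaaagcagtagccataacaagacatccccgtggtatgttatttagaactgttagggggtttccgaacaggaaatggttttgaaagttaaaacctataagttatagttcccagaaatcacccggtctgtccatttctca
Plek (chr11:17008719-17008968, minus): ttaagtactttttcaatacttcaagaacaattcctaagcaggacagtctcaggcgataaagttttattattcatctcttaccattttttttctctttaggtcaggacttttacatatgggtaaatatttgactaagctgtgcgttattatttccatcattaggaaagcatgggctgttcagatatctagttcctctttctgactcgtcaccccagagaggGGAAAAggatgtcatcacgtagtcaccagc
Exph5 (chr9:53301420-53301669, plus): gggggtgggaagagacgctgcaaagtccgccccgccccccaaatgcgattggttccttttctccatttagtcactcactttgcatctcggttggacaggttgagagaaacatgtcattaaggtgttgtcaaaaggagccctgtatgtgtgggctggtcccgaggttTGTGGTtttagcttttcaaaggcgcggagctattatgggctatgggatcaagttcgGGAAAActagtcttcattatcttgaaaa
TTTTCC in the Serpina3g promoter, and GGAAAA in the Plek and Exph5 promoters, are the NFAT letters GGAAAA on either strand, held by 20.4% of 32851 promoters of this length. TGTGGT in the Serpina3g and Exph5 promoters is the RUNX letters, held by 14% of promoters. The motifs of AP-1 (TGANTCA), the interferon-stimulated response element, T-box factors (GGTGTGA) and CREB (TGACGTCA) are in none of the 7 windows, and in 6.75%, 2.98%, 3.33% and 1.55% of all promoters. The promoters of Nrgn, Dgki, Chst11 and Dscam held no match. A match is letters in a window and not a measured site.

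Between 2258 and 5176 cells a library were deposited, and between 34893543 and 73904272 unique molecular identifiers (UMIs). Of 14795 cells, 12395 were kept, and 7370 fell into 15 gates defined by marker genes, 1094 of them into the 3 T cell gates. Control skins gave 143 and 51 CD8 T cells, 70 and 37 CD4 T cells, 31 and 30 Treg and 31 and 21 NK cells. Tumors gave 301 and 43 CD8 T cells, 136 and 100 CD4 T cells, 100 and 52 Treg and 88 and 49 NK cells. Cell barcodes found in more than 1 library numbered 23. Y-linked transcripts were found in all 4 libraries, at 3.19 to 9.27 UMIs per 10000, and Xist was at most at 0.00615 in each, the pattern of male cells. Levels are given as UMIs of the gene per 10000 UMIs of all genes, summed over the cells of a gate in a library, in the order control skin 1, control skin 2, skin tumor 1 and skin tumor 2. Levels are not per length, so they are compared between cells and not between genes. Summed macrophage markers, a sign of free RNA or mixed droplets, were at 0.120 to 0.836 per 10000 in the control T cell gates and at 0.540 to 1.5 in the tumor gates. The gates themselves had capped all of these markers but Mrc1. NK markers in CD8 T cells went from 2.06 and 1.01 to 3.86 and 7.79. Mki67 and Top2a, genes of dividing cells, went from 1.34 and 0.592 to 5.96 and 4.82 in Treg, stood at 3.25 and 3.22 against 8.28 and 3.99 in CD8 T cells, and overlapped in CD4 T cells. Non-immune markers were at 4.57 in CD8 T cells of control skin 1 and at 0 to 0.169 in the other T cell gates and libraries. Summed regulatory T markers, of which the CD4 gate excluded Foxp3 alone, went from 7.05 and 6.03 to 15.1 and 15.1 in CD4 T cells. They went from 6.27 and 7.37 to 13.4 and 13.1 in CD8 T cells, and fell from 104 and 101 to 66.2 and 60.9 in Treg. The part of these shifts in the levels below was not tested.

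Penk was highest in tumor CD4 T cells. Among CD4 T cells it stood at 0.267 and 0.207 UMIs per 10000 in control skins and at 10.2 and 4.98 in tumors, a mean 32.0-fold higher. UMIs were found in 29.4% and 29% of tumor CD4 T cells, against 0.46% and 1.65% of tumor macrophages, which should lack the gene. The level rested in part on few cells, since the highest cell held 261 of 1171 UMIs in tumor 1 and 102 of 440 in tumor 2. In CD8 T cells Penk was without a UMI in both controls and at 0.417 and 0.184 in tumors, at least 21.6-fold higher with a floor of 3 UMIs over the group. In Treg the groups overlapped, at 1.81 and 0.127 in controls and 1.78 and 2.6 in tumors, and 1 cell of control 1 held 42 of its 46 UMIs. NK cells had no Penk UMI in any library, which allows a level of up to 0.0396 to 0.103 per 10000 in each.

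The signaling genes Nrgn and Dgki differed in the T cells that carried them. Nrgn in CD8 T cells went from 0.0821 and 0.279 in controls to 0.865 and 0.828 in tumors (4.69-fold), and UMIs were found in 32.2% and 32.6% of tumor cells. CD4 T cells went from 0.227 and 0 to 0.967 and 1.43 (10.5-fold). In Treg no control UMI was found, and tumors held 1 and 10 UMIs, at 0.01 and 0.195, so the Treg level rests on skin tumor 2, and that of skin tumor 1 is under the control floor of 0.0611. Dgki was carried mainly by CD4 T cells. It had no UMI in control CD4 T cells and stood at 0.854 and 0.95 in tumors, at least 32.7-fold higher, in 13.2% and 24% of cells. Tumor Treg held 12 Dgki UMIs, at 0.06 and 0.117, and tumor CD8 T cells held 1. One cell gave 37 of the 98 Dgki UMIs in CD4 T cells of tumor 1.

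Plek was higher in tumor than control libraries in each T cell gate. In CD8 T cells it stood at 0.316 and 0.366 in controls and at 2.12 and 1.88 in tumors (5.87-fold), and the share of cells with a UMI was 16.8% and 21.6% against 74.4% and 65.1%. CD4 T cells went from 0.214 and 0.148 to 1.23 and 1.95 (8.78-fold) and Treg from 0.157 and 0.0845 to 0.63 and 1.01 (6.80-fold). Because macrophages carry much Plek RNA, its T cell level was set against that of macrophages of the same library, beside macrophage genes treated likewise. In CD8 T cells Plek was at 4.66% and 4.20% of the macrophage level in controls and at 33.0% and 29.2% in tumors. Lyz2, the lysozyme gene of macrophages, was at 0.41% and 0.64% in controls and at 0.70% and 1.12% in tumors. In the tumors Plek was above each of 14 macrophage genes in all 3 gates, narrowly in Treg, where it was at 9.78% and 15.8% and Ctss at 8.71% and 10.4%. The T cell gates had capped the summed UMIs of C1qa, C1qb, C1qc, Lyz2, Csf1r, Adgre1, Fcgr1 and Ms4a7. The low levels of these genes in T cells are thus in part set by the gates. Apoe, Cd74, Ctss, Cd68, Tyrobp and Fcer1g were not capped. In control gates 1 to 4 of the 14 genes were above Plek, among them Fcer1g in CD8 T cells, at 6.89% and 6.41%, and Ctss in Treg, at 7.67% and 9.89%.

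**Figure D1:**
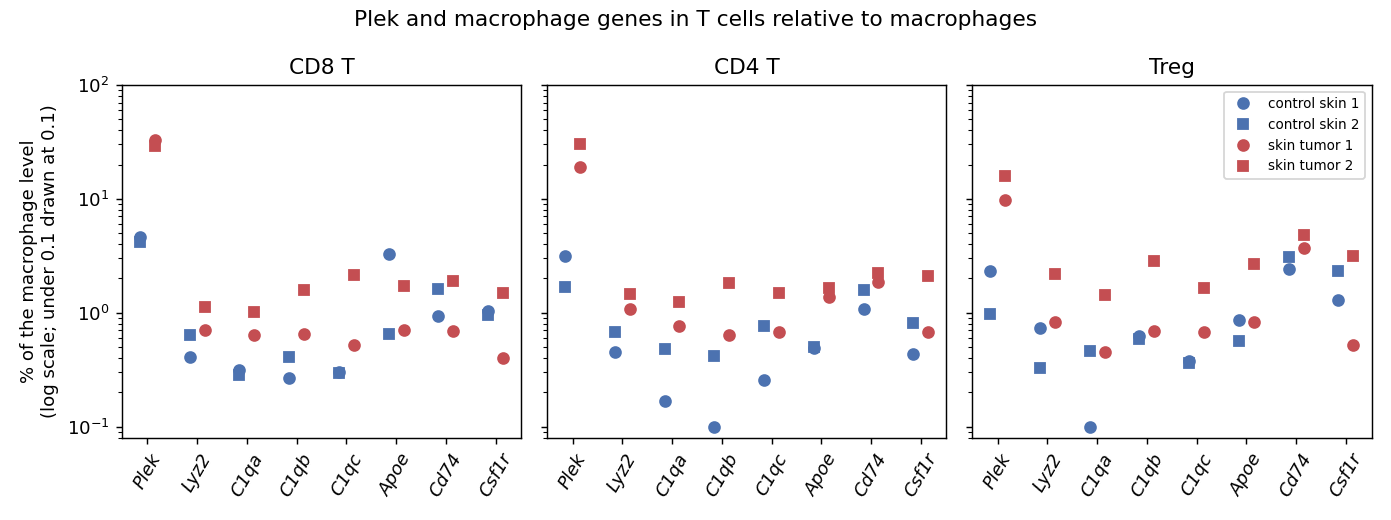
Level of Plek and of 7 macrophage genes in CD8 T, CD4 T and Treg gates, as percent of the macrophage level in the same library on a log axis, with 1 point per library and values under 0.1 drawn at 0.1. Plek in tumor CD8 T cells lies at 33.0% and 29.2%, above each macrophage gene drawn for the same library. The T cell gates had capped the summed UMIs of a set with Lyz2, C1qa, C1qb, C1qc and Csf1r. Ctss, Fcer1g and Tyrobp are not drawn.

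Serpina3g was near absent from control T cells and present in all 3 tumor T cell gates at like levels. CD8 T cells went from 0.0948 and 0.0697 to 0.795 and 1.16 (11.9-fold), with a UMI in 48.8% and 51.2% of tumor cells. CD4 T cells held 2 control UMIs against 164 tumor UMIs, at 0 and 0.0591 against 0.967 and 0.6, and the ratio of the summed levels was 43.9 (95% counting interval 12 to 365). Treg held none in controls and stood at 1.1 and 1.17 in tumors, at least 18.6-fold higher. Control and tumor libraries did not overlap in any of the 3 gates.

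Exph5, a Rab27 effector, was found in tumor CD8 and CD4 T cells and in no Treg. In CD8 T cells it stood at 0.0569 and 0 in controls, where 1 cell held all 9 UMIs, and at 0.393 and 0.258 in tumors (11.4-fold). In CD4 T cells no control UMI of Exph5 was found and tumors were at 0.706 and 0.962, at least 30.2-fold higher, with a UMI in 20.6% and 28% of cells. Chst11 was also found in control T cells. It went from 0.55 and 0.732 to 2.98 and 3.4 in CD8 T cells (4.98-fold), from 0.267 and 0.237 to 1.77 and 2.2 in CD4 T cells (7.87-fold) and from 0.551 and 0.296 to 1.13 and 1.31 in Treg (2.88-fold). Of tumor CD8 T cells, 82.4% and 72.1% had a Chst11 UMI, against 28.7% and 33.3% of control cells.

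Setbp1, at chr18:78750380-79109391 (minus strand, 359 kb), was near absent from control CD8 T cells. Controls held 5 and 0 UMIs, at 0.0316 and 0, and tumors 2295 and 309, at 5.07 and 5.69. The mean level was 340-fold higher, a fold that rests on the 5 UMIs of 1 control library. UMIs were found in 73.4% and 60.5% of tumor CD8 T cells against 1.4% and 0% of control cells, and 0 of 51 cells allows a share of up to 5.88%. CD4 T cells held 1 control and 113 tumor UMIs, at 0.0134 and 0 against 0.662 and 0.419, a ratio of 60.4 (95% counting interval 10.6 to 2.41e+03). Treg went the other way, from 0.944 and 0.803 in controls to 0.37 and 0.546 in tumors, a fold of 0.525. The adhesion molecule gene Dscam stood at 0.133 and 0.0348 in control CD8 T cells and at 2.03 and 1.09 in tumors (18.6-fold). CD4 T cells went from 0.107 and 0 to 2.11 and 1.53 (34.0-fold), and Treg from 0.315 and 0.0423 to 1.47 and 1.64 (8.71-fold). Dscam was thus at close levels in the 3 tumor T cell gates, where 26.9% to 34% of cells had a UMI.

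**Figure D2:**
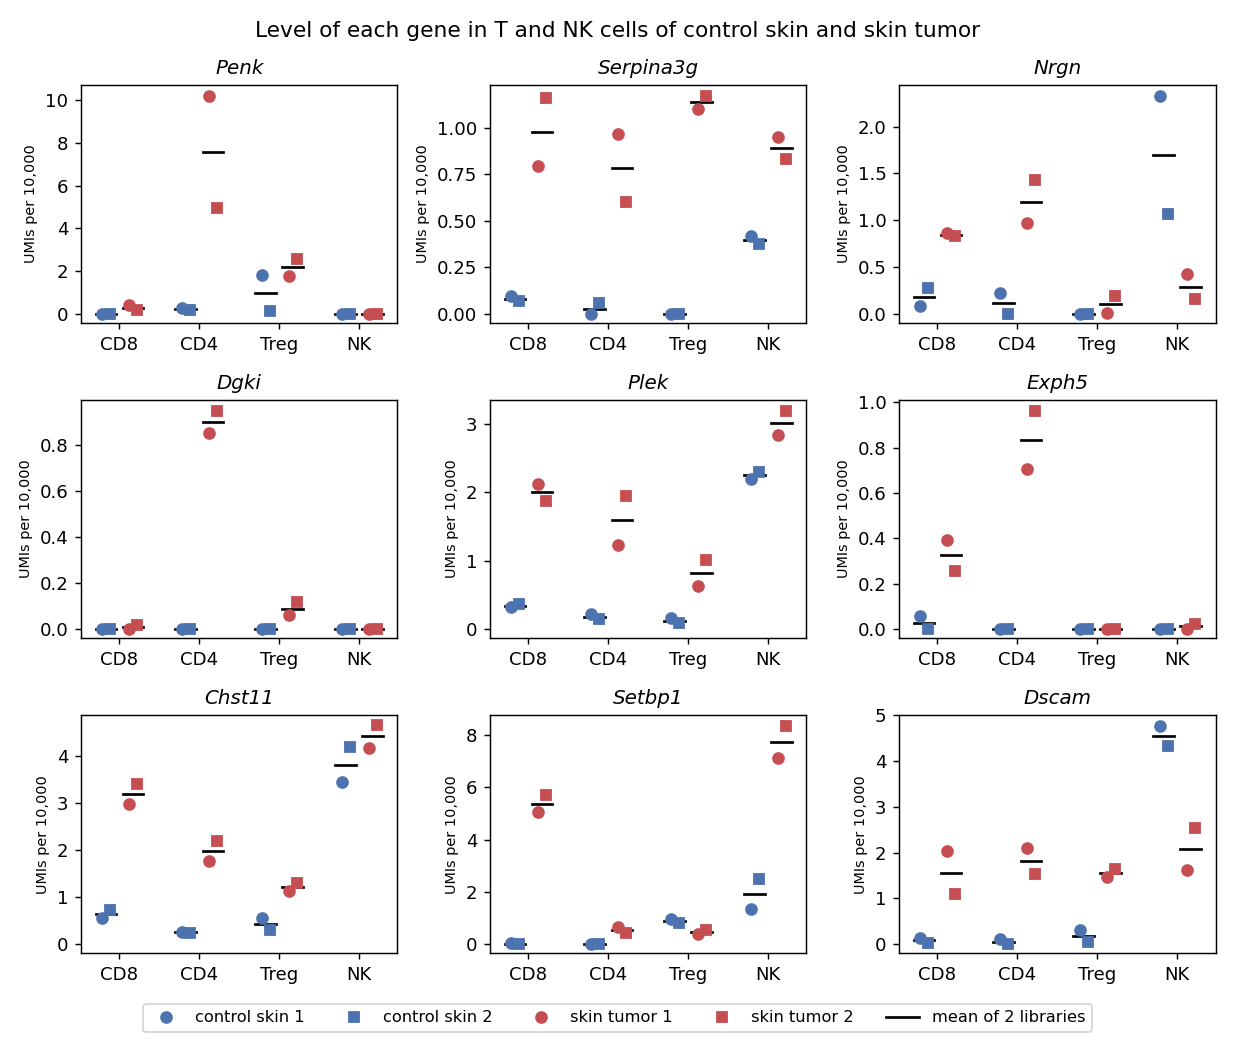
UMIs per 10000 of each gene in CD8 T, CD4 T, Treg and NK cells, with 1 point per library, blue for control skin and red for skin tumor, and a line at the mean of 2 libraries. Tumor points lie above control points in CD8 and CD4 T cells for all genes but Dgki in CD8 T cells, and below them for Setbp1 in Treg and for Nrgn and Dscam in NK cells.

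The number of genes with both tumors above both controls was 8 of 9 in CD8 T cells, 9 in CD4 T cells and 6 in Treg, where Nrgn counts through 1 UMI in skin tumor 1. Over all genes tested in these gates, 3.48%, 5.64% and 2.7% were called higher in tumors at an adjusted p under 0.05 (edgeR). A call is a stricter measure than both tumors above both controls, so these shares are no baseline for the counts. The share of all genes with both tumors above both controls is not given here. Nothing is read from the counts, since the contrast chose the genes. Cells were thinned to 2000 UMIs to compare detection at 1 depth, which left out 136 of 7370 gated cells. After thinning, UMIs of at least 2 of the 9 genes were found in 2.8% and 0% of control CD8 T cells and in 51.2% and 46.5% of tumor cells. Among CD4 T cells the shares were 0% and 0% against 38.1% and 41%, and in Treg 0% and 0% against 14.1% and 23.1%. Shares of 0 of 70, 51, 37 and 30 cells allow up to 4.29%, 5.88%, 8.11% and 10%. In NK cells they were 54.8% and 52.4% against 65.5% and 72.3%.

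**Figure D3:**
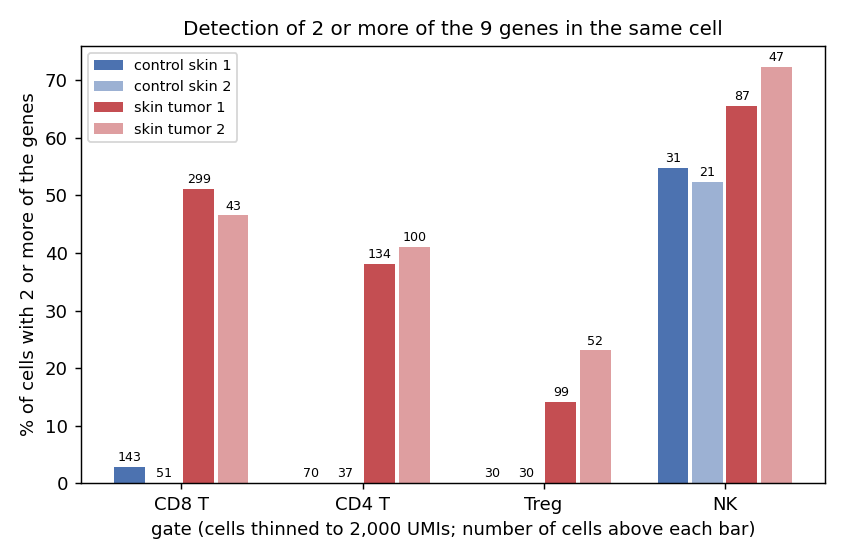
Percent of cells with UMIs of 2 or more of the 9 genes, after thinning to 2000 UMIs, in each gate and library, with the number of cells above each bar. Tumor CD8 T cells reach 51.2% and 46.5%, while control NK cells are already at 54.8% and 52.4%.

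NK cells of control skin carried several of the genes that were absent or low in control CD8 and CD4 T cells. Of the 6 genes tested, 2 changed between control and tumor. Setbp1 rose, and Nrgn fell. Over all genes tested in NK cells, 1.11% were called higher and 1.45% lower in tumors. Setbp1 stood at 1.35 and 2.51 UMIs per 10000 in control NK cells and at 7.14 and 8.35 in tumors, a log2 difference of 2.02 (SE 0.31, adjusted p = 0.0144, edgeR quasi-likelihood test, Benjamini-Hochberg over all genes). Nrgn stood at 2.33 and 1.06 in controls and at 0.423 and 0.162 in tumors, a log2 difference of -2.46 (SE 0.49, adjusted p = 0.0390). For both genes the groups did not overlap. Dscam was highest of all gates in control NK cells, at 4.77 and 4.33, against 1.61 and 2.54 in tumors, and this difference missed the threshold (log2 -1.17, SE 0.26, adjusted p = 0.0573).

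Serpina3g in NK cells was at 0.419 and 0.378 in controls and 0.951 and 0.832 in tumors (log2 1.15, SE 0.33, adjusted p = 0.123). Plek was at 2.19 and 2.3 against 2.84 and 3.19 (adjusted p = 0.423), and Chst11 at 3.44 and 4.19 against 4.18 and 4.65 (adjusted p = 0.770), where the groups overlapped. Penk and Dgki had no UMI in NK cells and Exph5 had 1. After thinning, 22.6% and 33.3% of control NK cells and 55.2% and 63.8% of tumor NK cells had a Setbp1 UMI. For Nrgn the thinned shares were 22.6% and 23.8% against 6.9% and 10.6%, so both differences kept their direction at equal depth. Control NK cells had a median of 12899 and 13917 UMIs, tumor NK cells of 7348.5 and 7557.

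The NK gate also differed in make-up. The 9 NK markers summed to 20.04 and 14.7 per 10000 in controls and to 50.4 and 62.7 in tumors, led by the granzyme gene Gzma. Eomes, the T-box factor of NK cells, was at 1.00 and 2.82 in controls and 3.34 and 3.24 in tumors, and Il7r, a receptor of other innate lymphocytes, at 1.61 and 0.893 against 0.159 and 0.0925. The gate itself left out cells with Cd3d, Cd3e, Cd3g or Trdc UMIs. Of T cell receptor genes it did not use, Trbc1 was at 4.003 and 3.95 in controls against 3.79 and 2.89 in tumors. Trac was at 0.0233 and 0.0687 against 0.0793 and 0.04625, and Trbc2 at 0.815 and 0.721 against 1.14 and 0.786. Both Trac and Trbc2 lay below their levels in each T cell gate. Trbc1 did not, since it was at 3.61 to 4.73 in CD8 T cells, 2.82 to 5.63 in CD4 T cells and 1.775 to 3.96 in Treg. The part of these shifts in the Setbp1 and Nrgn differences was not tested. The Nrgn call was lost without control skin 1 (log2 -1.76, adjusted p = 0.144), without skin tumor 2 (log2 -2.01, adjusted p = 0.0830) and with the stricter gate (log2 -2.48, adjusted p = 0.0623). Among cells without Mki67 or Top2a UMIs both calls were lost with close differences, Setbp1 at a log2 of 1.93 (adjusted p = 0.117) and Nrgn at -1.92 (adjusted p = 0.143).

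Serpina3g was the one gene of the 9 called higher in tumor dendritic cells. In cDC2 it stood at 0.0199 and 0.02 in controls and at 0.56 and 0.533 in tumors, a log2 difference of 4.50 (SE 0.37, adjusted p = 0.00457, edgeR). It was the only gene called of 5 tested there, where 3.03% of all genes were called higher and 3.96% lower. In cDC1 it had no control UMI and stood at 0.972 and 0.822 in tumors, at least 20.2-fold higher (adjusted p = 0.0226, edgeR). It was the only call of 3 genes tested there, against 0.242% of all genes called higher and 0.464% lower. Control skins gave 12 and 18 cDC1 and tumors 62 and 10. The cDC1 call was lost without control skin 1 (adjusted p = 0.206) or control skin 2 (adjusted p = 0.338), refits in which no gene at all was called. In mature DC, 2 control UMIs stood against 161 tumor UMIs, a ratio of 26.9 (95% counting interval 7.33 to 224), and the adjusted p was 0.0609.

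In mature DC, 0 of 3 genes passed the edgeR test, as did 0.0% of all genes. At an unadjusted p under 0.05 there were 2, and DESeq2 called 1. Macrophages held Serpina3g at 0.146 and 0.0365 in controls and at 0.635 and 0.41 in tumors, a log2 difference of 2.61 (SE 0.53, adjusted p = 0.103). Of 5 genes tested in macrophages 0 were called, 1 had an unadjusted p under 0.05, and DESeq2 called 1, Serpina3g in each case. Of all genes tested in macrophages, 0.244% were called higher and 0.185% lower. In neutrophils 0 of 2 genes were called, 0 had an unadjusted p under 0.05 and DESeq2 called 0, beside 0.0% of all genes. Serpina3g there had no control UMI and was at 0.0748 and 0.12 in tumors.

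Plek was high in each myeloid gate and Chst11 in neutrophils. Plek was highest in neutrophils, at 27.4 and 16.5 in controls and 22.7 and 18.2 in tumors, where the groups overlapped, and next in mast cells, at 13.4 and 18.3 against 9.42 and 10.4. In macrophages it was at 6.79 and 8.72 against 6.44 and 6.44, both tumors below both controls. In dendritic cells both tumors lay below both controls, at 7.90 and 6.51 against 4.23 and 3.53 in cDC1, 8.12 and 8.32 against 5.92 and 6.68 in cDC2 and 11.1 and 11.2 against 8.22 and 7.36 in mature DC. Their log2 differences were -1.06 (SE 0.28), -0.61 (SE 0.19) and -0.60 (SE 0.22), with unadjusted p-values of 0.00553, 0.0133 and 0.0314 and adjusted ones of 0.114, 0.0936 and 0.261 (edgeR). DESeq2 called Plek in cDC1, and edgeR called it in no gate outside T cells (adjusted p from 0.0936 to 0.933). Chst11 was highest in neutrophils, at 14.5 and 12.5 against 11.9 and 10.1. In mast cells Chst11 rose from 0.63 and 2.57 to 6.42 and 8.02, a log2 difference of 2.26 (SE 0.53, adjusted p = 0.0447). It was 1 of 3 genes tested in mast cells, where 2.37% of all genes were called higher and 1.62% lower. The call was lost without control skin 1 (log2 1.73). It was also lost in edgeR with upper-quartile factors (adjusted p = 0.0977) and without the gate's limit on MHC class II UMIs (adjusted p = 0.0705). Control skins gave 13 and 34 mast cells and tumors 30 and 24. Dgki was also found in mast cells, at 0.839 and 1.5 in controls and 1.43 and 1.49 in tumors, which overlapped.

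Resident lymphocytes of control skin shared part of the pattern. Nrgn stood at 1.6 and 1.7 in dendritic epidermal T cells (DETC) of control skin, where 61.7% and 65.1% of cells had a UMI, and these cells held 51.8% of all Nrgn UMIs of the controls. Dscam stood at 0.167 and 0.118 in the same cells. Tumors held 1 and 20 DETC, so no comparison was made there. Type 2 innate lymphoid cells of control skin carried Chst11 at 2.49 and 3.04.

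**Figure D4:**
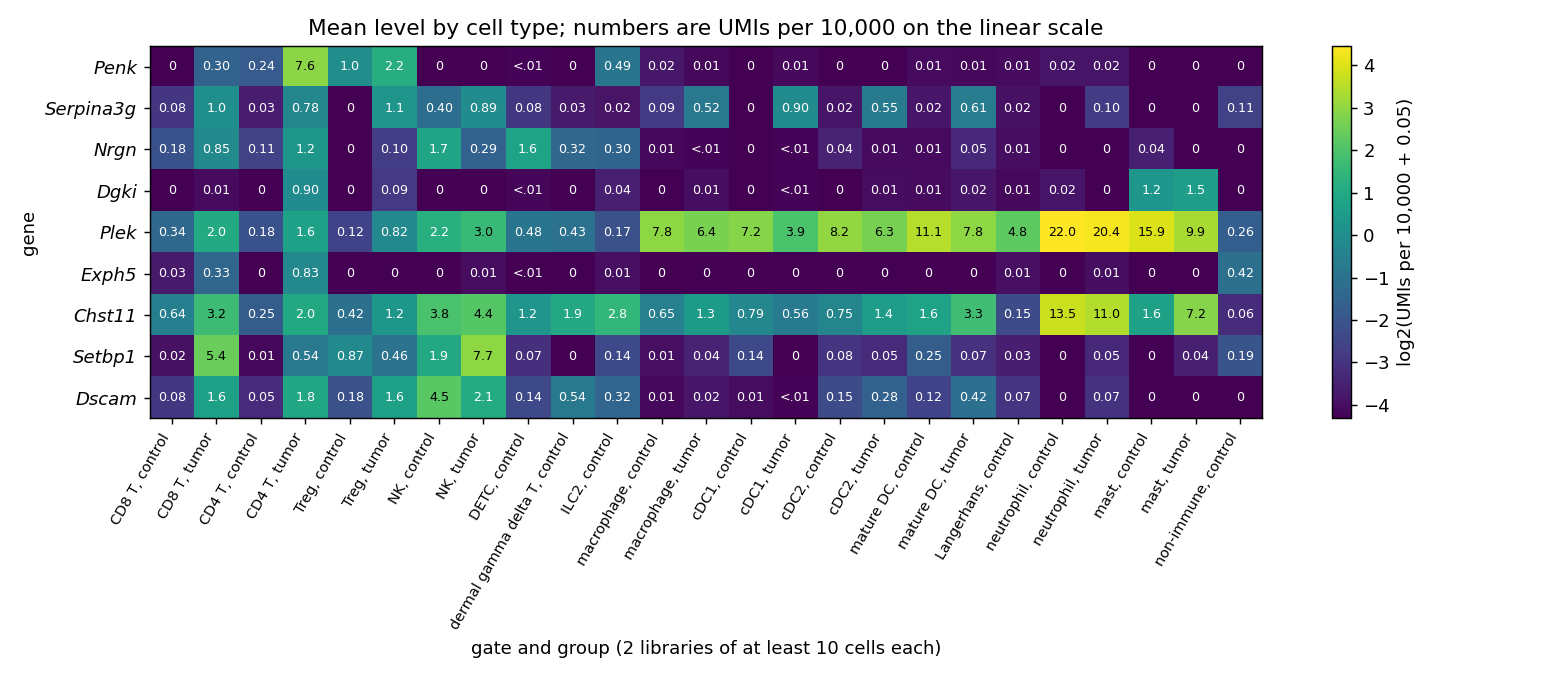
Mean level of each gene over 2 libraries in each gate and group with at least 10 cells in both libraries, colored by log2(UMIs per 10000 + 0.05) and printed as UMIs per 10000. Penk and Exph5 are brightest in tumor CD4 T cells, Plek and Chst11 in neutrophils, Setbp1 in tumor CD8 T and NK cells, and Dscam in control NK cells.

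Counted over all kept cells of the tumors, gated or not, the 3 T cell gates held 77.4% of Penk UMIs and 72.2% of Exph5. These gates held 64.6% of Nrgn UMIs, 47.5% of Dscam, 46.65% of Dgki and 45.4% of Setbp1. They held 14.1% of Serpina3g UMIs, 13.6% of Chst11 and 2.80% of Plek. Myeloid gates held 65.6% of Serpina3g, 74.8% of Plek, 47.6% of Chst11 and 22.0% of Dgki UMIs. In the tumors, cells without a gate held from 18.0% (Serpina3g) to 34.6% (Setbp1) of the UMIs of a gene. In control skin, cells without a gate held from 24.1% (Exph5) to 64.8% (Dscam). The levels given for control T cells thus cover gated T cells only. Whether the cells without a gate included T cells was not tested.

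Within the tumors, the T cell types were compared with each other. The rule had not contrasted the types, but a gene could be chosen for its tumor level in a single type. This tilts the comparisons toward differences, so their p-values and counts of calls are a description. CD4 T cells held more Penk and Dgki and less Setbp1 and Chst11 than CD8 T cells, 2 genes called higher and 2 lower of 9, against 5.22% and 2.53% of all genes. Penk was 25.2-fold higher in CD4 T cells (log2 4.48, SE 0.42, adjusted p = 1.57e-05). Dgki held 182 UMIs in CD4 and 1 in CD8 T cells, a ratio of 454 (95% counting interval 80.5 to 1.805e+04, adjusted p = 5.51e-05), and DESeq2 did not call it. Setbp1 was 9.95-fold higher in CD8 T cells (log2 -3.28, SE 0.28, adjusted p = 1.86e-06). Chst11 was 1.61-fold higher in CD8 T cells (log2 -0.69, SE 0.19, adjusted p = 0.0353), a call that was lost without either tumor. Exph5 was higher in CD4 T cells without passing the test (log2 1.24, SE 0.39, adjusted p = 0.0746). These p-values are from edgeR with the library as a block, and DESeq2 called 2 of the 4 genes.

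Tumor Treg were set against CD8 T cells and then against CD4 T cells, and these counts and p-values are again a description. Against CD8 T cells, 2 genes of 9 were called higher and 5 lower in Treg, beside 6.91% and 3.92% of all genes. Penk was 7.28-fold higher in Treg (log2 2.73, SE 0.42, adjusted p = 0.000682) and Dgki held 12 UMIs against 1. Setbp1 was 11.7-fold higher in CD8 T cells (log2 -3.61, SE 0.30, adjusted p = 1.41e-06), Nrgn 8.26-fold (log2 -3.48, SE 0.79, adjusted p = 0.00791), Chst11 2.62-fold (log2 -1.40, SE 0.21, adjusted p = 0.000198) and Plek 2.43-fold (log2 -1.39, SE 0.25, adjusted p = 0.00117). Exph5 was at least 16.4-fold higher in CD8 T cells (adjusted p = 0.000437). The Nrgn, Dgki, Plek and Exph5 calls were lost without skin tumor 1, at adjusted p of 0.210, 0.555, 0.242 and 0.0666, and Plek fell by a log2 of 0.65 (adjusted p = 0.552) without the limit on MHC class II UMIs in the T cell gates. DESeq2 called 3 of the 7. Against CD4 T cells, 0 genes were higher and 5 lower in Treg, beside 2.12% and 2.6% of all genes. Nrgn was 11.7-fold higher in CD4 T cells (log2 -3.92, SE 0.77, adjusted p = 0.00677), Dgki 10.2-fold (log2 -3.43, adjusted p = 0.00352), Penk 3.47-fold (log2 -1.74, adjusted p = 0.0126) and Plek 1.93-fold (log2 -0.98, adjusted p = 0.0318), and Exph5 at least 42.0-fold (adjusted p = 0.000139). The Penk and Dgki calls were lost without skin tumor 1 (adjusted p = 0.336 and 0.157), the Dgki call without skin tumor 2 (adjusted p = 0.0568), and the Plek call without any 1 of the 4 libraries, at log2 differences of -0.94 to -0.98. Without the MHC class II limit the Plek difference was -0.27 (adjusted p = 0.882). DESeq2 called 1 of the 5.

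The 9 genes were chosen for being present in tumor T cells, which tilts a comparison with NK cells toward the T cell side, so that the values of tumor NK against CD8 T cells are a description. Penk and Exph5 were lower in NK cells. Penk was at least 11.9-fold higher in CD8 T cells (adjusted p = 0.00704), and Exph5 held 192 UMIs in CD8 T against 1 in NK cells, a ratio of 45.0 (95% counting interval 7.98 to 1787, adjusted p = 0.00206). No other gene of the 9 was called, where 6.74% of all genes were higher and 5.3% lower, and both were lost without skin tumor 1 (adjusted p = 0.194 and 0.286). Dscam and Serpina3g were called in none of the 4 type comparisons. For Dscam the log2 differences lay between -0.24 and 0.41 (adjusted p from 0.513 to 0.945), and for Serpina3g between -0.25 and 0.51 (adjusted p from 0.501 to 0.991). Among cells without Mki67 or Top2a UMIs, Dscam was called higher in CD4 T (log2 1.49, adjusted p = 0.0248) and NK cells (log2 1.38, adjusted p = 0.0464) than in CD8 T cells. The misses do not show that the levels are equal.

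**Figure D5:**
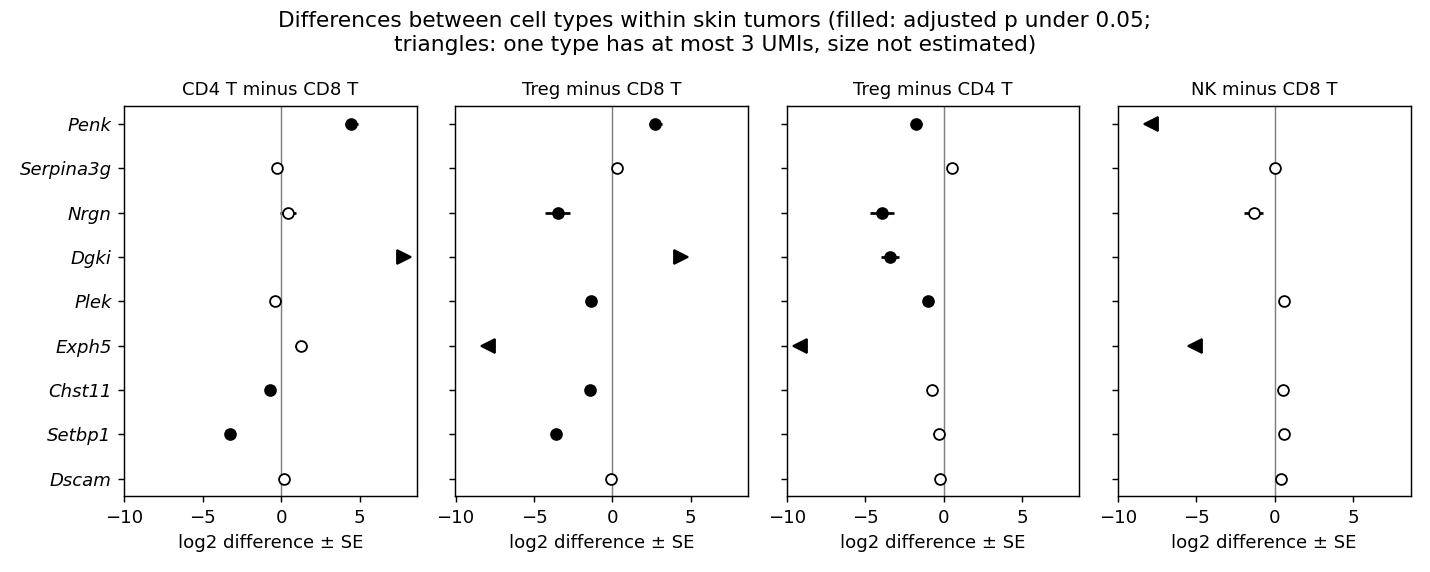
Log2 difference with its SE between cell types within skin tumors for each gene, with filled symbols for adjusted p under 0.05 (edgeR) and triangles where one type held at most 3 UMIs, so that no size was estimated. Setbp1 lies far to the CD8 T side against both CD4 T cells and Treg, Penk to the CD4 T side, and Dscam and Serpina3g near 0 in all 4 panels.

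Within single libraries, thinned tumor CD8 T cells with a Setbp1 UMI (125 and 21 cells) were set beside those without (174 and 22 cells), as a description. Entpd1, the ectonucleotidase CD39 of chronically stimulated T cells, was at 2.56 against 0.948 UMIs per 10000 in tumor 1 and 2.14 against 0.682 in tumor 2. The inhibitory receptor gene Pdcd1 was at 3.12 against 1.95 and 3.81 against 2.27, and Havcr2 at 1.92 against 1.24 and 2.86 against 1.59. Ifng went the other way, at 1.68 against 2.79 and 0.714 against 1.82. Both tumors had the same direction for these 4 genes, which are part of a larger set compared in this way. The other genes of that set are not given here. Levels in tumor 2, over 21 and 22 cells, rest on few UMIs. In tumor CD4 T cells with a Penk UMI (37 and 19 cells) against those without (97 and 81), Chst11 was at 2.84 against 1.60 and 4.74 against 1.67, and Nrgn at 2.03 against 0.258 and 1.58 against 1.05. Dgki differed between tumors, at 1.76 against 0 in tumor 1 and 0.789 against 1.11 in tumor 2. Levels over the 19 cells of tumor 2 also rest on few UMIs.

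Gene lists around the 9 genes, which leave them out, were counted in the T cell gates. The exhaustion and activation list holds Pdcd1, Lag3, Havcr2, Tigit, Ctla4, Tox and Ifng. The study had already reported these as higher in its tumor T cell cluster from the same libraries. The counts and medians of this list are therefore a description and no independent test. Of 19 exhaustion and activation genes tested in CD8 T cells, 7 rose and 3 fell in tumors, with a median log2 difference of 0.39 against 0.03 over all genes, beside 3.48% of all genes called higher and 5.98% lower. Entpd1 went from 0.0569 and 0.122 to 1.64 and 1.49 UMIs per 10000 (log2 4.17, SE 0.34, adjusted p = 0.00137, edgeR). The inhibitory receptor Lag3 rose by a log2 of 3.74 (SE 0.54, adjusted p = 0.00616), and the costimulatory receptor Icos fell by a log2 of 2.89 (SE 0.26, adjusted p = 0.00164). Among CD4 T cells 8 of 18 rose and 1 fell (median 0.85 against 0.04), beside 5.64% and 4.42% of all genes. Entpd1 rose there by a log2 of 3.21 (adjusted p = 0.000539), and Havcr2 by 2.20 (adjusted p = 0.0050), which turned to -0.15 without the limit on MHC class II UMIs. Without skin tumor 2 no gene of the CD4 T fit was called, so these and all other list calls in CD4 T cells were lost, with Entpd1 at a log2 of 3.31 and Havcr2 at 2.57 (adjusted p = 0.209 for both). Lag3 in CD8 T cells lost its call without control skin 1 (adjusted p = 0.0578) and without skin tumor 1 (adjusted p = 0.0962). Of 16 tested in Treg, 0 rose and 2 fell, Icos (log2 -1.33, adjusted p = 0.0188) and Ctla4 (log2 -1.20, adjusted p = 0.0341), with a median of -0.40 against 0.01, beside 2.7% and 1.89% of all genes. Of the 16, 8 had an unadjusted p under 0.05 in either direction, and DESeq2 called 2. The Icos and Ctla4 calls were lost without the MHC class II limit (adjusted p = 0.0891 and 0.106, edgeR). They were also lost among cells without Mki67 or Top2a UMIs (adjusted p = 0.0772 and 0.0642). Leaving out control skin 1 or 2 lost both, at log2 differences of -1.33 and -1.37 for Icos and -1.24 and -1.20 for Ctla4.

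Of 5 other diacylglycerol kinases tested, 1 fell in CD8 T cells, Dgka (3.10 and 2.67 against 1.67 and 1.23, log2 -1.12, SE 0.23, adjusted p = 0.0218), and 0 changed in CD4 T cells and Treg, where 2 and 0 had an unadjusted p under 0.05 and DESeq2 called 0 in both. Of the diacylglycerol effectors (protein kinase C and RasGRP), 1 of 13 fell in CD8 T cells and 1 of 12 in CD4 T cells, Rasgrp4 in both. In Treg 1 of 9 rose, Prkcb (log2 2.82, adjusted p = 0.00565), which turned to -0.73 without the MHC class II limit. Of 16 calcium and calmodulin genes in CD8 T cells, Calm3 (log2 1.06) and Itpr1 (0.80) rose and Nfatc2 (-1.70) fell. Camk2d rose (1.29) and Nfatc2 fell (-1.26) in CD4 T cells, of 16, and in Treg Itpr1 rose (1.43), of 15. DESeq2 did not call Itpr1 in CD8 T cells (adjusted p = 0.0960) or Rasgrp4 in CD4 T cells (adjusted p = 0.182). Each call of this paragraph but that of Nfatc2 in CD8 T cells was lost in at least 1 refit. Over all genes, 3.48% were called higher and 5.98% lower in CD8 T cells, 5.64% and 4.42% in CD4 T cells, and 2.7% and 1.89% in Treg.

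Of 9 serpins and cathepsins in CD8 T cells, the lysosomal protease Ctsb rose (log2 1.03) and Ctsw fell (-1.01). In CD4 T cells 3 of 9 rose and 2 fell, among them Ctsb (1.62), Serpinb1a (-2.74) and Ctsw (-1.47). In Treg 2 of 6 rose, Ctsd (1.84) and Serpinb9 (2 control against 64 tumor UMIs), while DESeq2 called 0 of the 6. The Ctsd call was lost with the stricter gate (log2 2.13, adjusted p = 0.0914, edgeR) and with doublets kept (log2 1.08, adjusted p = 0.174). The Serpinb9 call was lost when any single library was left out. Of the chondroitin sulfate genes, Chst12, another chondroitin sulfotransferase, rose in CD8 T cells (2.67, 1 of 7), Csgalnact1 in CD4 T cells (0 control against 73 tumor UMIs, 1 of 8), and Ust fell in Treg (-1.35, 1 of 5). Of the Rab27 and granule genes, Vamp8 rose and Sytl2 fell in CD8 (1.496 and -0.86) and CD4 T cells (1.08 and -0.95), Sytl3 fell in CD8 T cells (-1.85), and Sytl2 fell in Treg (-1.09), of 9, 8 and 6 genes tested. DESeq2 did not call Sytl2 in CD8 T cells, CD4 T cells or Treg (adjusted p = 0.19, 0.22 and 0.13). Nor did it call Ctsb (adjusted p = 0.127) or Chst12 (adjusted p = 0.0938) in CD8 T cells. Of 2 opioid genes tested in CD8 T cells, the mu receptor Oprm1 rose (0.0695 and 0.0871 against 0.249 and 0.368 UMIs per 10000, log2 1.79, SE 0.45, adjusted p = 0.0432) and the protease Furin fell (-2.02). The Oprm1 call was lost by DESeq2 (adjusted p = 0.287), with the replicate block (adjusted p = 0.0592), with the stricter gate (adjusted p = 0.0818) and without control skin 1, control skin 2 or skin tumor 1 (adjusted p = 0.285, 0.133 and 0.0535). Myb, of the genes tied to SETBP1, rose in CD8 T cells (log2 3.09, SE 0.43, adjusted p = 0.00519, 1 of 7), and Nck2, of the DSCAM list, fell in CD4 T cells (-1.22, 1 of 3). In the remaining 6 combinations of these last 3 lists and gates, 0 genes of 1 to 7 tested were called, 0 or 1 had an unadjusted p under 0.05 and DESeq2 called 0. Each call named in this paragraph but that of Myb was lost in at least 1 refit.

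Genes with the closest pattern were sought over 45 combinations of gate and library with at least 20 cells, as Pearson's r of log2(UMIs per 10000 + 0.05) among 13301 genes. The points share libraries and cell types, so r is a description. Plek lay closest to Tyrobp (0.909), Lilr4b (0.905) and Syk (0.902). Nrgn lay closest to Klrc1 (0.882), Atp10a (0.879) and Cd96 (0.835), and Penk to Gm3468 (0.860), Podnl1 (0.831) and Ttn (0.828). Setbp1 lay closest to Eomes (0.806), Adamts14 (0.795) and Gimap7 (0.784), Dgki to Pomgnt1 (0.802), Gm28187 (0.798) and Lxn (0.793), and Exph5 to Slc17a6 (0.797), Bace2 (0.784) and Dlg2 (0.777). Serpina3g lay closest to Nmi (0.787), Psmb9 (0.778) and Xpo1 (0.770), and Dscam to Oprm1 (0.787), Klre1 (0.770) and Tmem163 (0.761). Chst11 had no close partner, with Isg15 (0.642), Slc2a6 (0.638) and Hdc (0.635) first. Among the 9 genes the closest pairs were Setbp1 with Dscam (0.706) and Nrgn with Dscam (0.670).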

How the data were processed

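Single-cell 3′ RNA libraries of CD45+ cells were analyzed, 2 from control skin and 2 from skin tumors. The authors deposited raw UMI counts per gene and cell from Cell Ranger (7.1.0 in the submitters' notes, genome mm10), with no normalization, doublet removal or pooling. The depth was 34893543 to 73904272 UMIs a library. Following the study, cells were dropped below 100 genes, 1000 UMIs or a complexity of 0.8, or above 15% mitochondrial UMIs. Doublets were scored with Scrublet (scanpy 1.11.5), and the top 1% per 1000 cells, 453 cells (3.53%), was removed. The alleles of the model behind the tumor line are not reported here.

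Cells were gated by marker genes. T cells needed at least 2 CD3 UMIs. T, NK and other lymphoid cells also had to be under 10 macrophage and 20 MHC class II UMIs per 10000. These limits were set after cells had been seen. Of the kept cells, 4956 had no gate and 69 had markers of 2 lineages.

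UMI counts were summed per gate and library. The main test was the quasi-likelihood test of edgeR 4.0.16, after filterByExpr and with TMM factors, and p-values were adjusted over all genes of a fit by Benjamini-Hochberg, with a threshold of 0.05. The fit of cell types used the library as a block. DESeq2 1.42.0 was an alternative. Samples were grouped by their titles. The members and lists were chosen with earlier results of these data known. Named genes were the 9, up to 3 called genes a list and gate whose tumors lay on the same side of both controls, with the largest change, and the 3 genes most alike. Intervals (Clopper-Pearson or Poisson, 95%) and floors of 3 UMIs cover counting error only. Intervals of ratios take each UMI as independent, although single cells held many UMIs of genes such as Dgki, so they can be too narrow.

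Of 31053 gene identifiers, 30934 matched GENCODE vM21. The tests were tested on simulated data: of 200 genes changed by 2 on the log2 scale, 54% (mast cells, 2279 genes) to 86% (CD4 T cells, 7463 genes) were called, and of the calls made 2.70% (mast cells) to 15.8% (Treg against CD8 T cells, 8077 genes) were false, with 9.94% in cDC1 (4954 genes) and 12.7% in cDC2 (8915 genes), above the nominal threshold. The gene-wise difference between the 2 controls was correlated with that between the 2 tumors in each gate, at -0.0898 to 0.105. This cannot tell whether samples of the same replicate number shared a day or run.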

Additional observations from a re-analysis of the deposited data

Results flagged for a closer look

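Nrgn was flagged because its direction differed between cell types. In NK cells the tumor mean was 0.172 times the control mean, and both tumors lay below both controls, while in CD8 and CD4 T cells both tumors lay above both controls. In Treg they did so through 1 UMI in skin tumor 1. Dscam was flagged on the same ground, with a tumor mean in NK cells of 0.457 times the control mean and both tumors above both controls in the 3 T cell gates. Setbp1 was flagged because both tumors lay below both controls in Treg (0.525 times the control mean) and above them in CD8 T cells, CD4 T cells and NK cells. For none of the 3 genes was the difference between cell types in these contrasts tested, since the T cell contrast chose the genes.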

How the results depend on the processing

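With 2 libraries a group, calls near the threshold depended on single libraries. In NK cells 2 members were called, with 1 to 3 when a library was left out, 0 among cells without Mki67 or Top2a and 2 with the replicate block. In macrophages 0 were called, with 1 by DESeq2, 1 without the filter on low counts, 1 with the replicate block and 0 to 2 without a library. In the other gates 3 were called, with 5 by DESeq2, 8 without the filter on low counts, 3 with the replicate block and 1 to 7 without a library. Of type differences 18 were called, with 7 by DESeq2, 15 with the replicate block or without the library block, 17 in the tumors alone and 8 to 17 without a library, 8 without skin tumor 1. Of list genes 53 were called, with 34 among cells without Mki67 or Top2a, 38 by DESeq2, 44 with the replicate block and 15 to 61 without a library, 15 and 16 without control skin 1 and 2, and none in CD4 T cells without skin tumor 2. Tumors lay above controls for 8 members in CD8 T cells (6 to 8 over the alternatives), 9 in CD4 T cells (9) and 6 in Treg (5 to 6). Nothing is read from these last counts or their stability, since the contrast chose the genes and the share over all genes is not given. The cause of the changes between settings was not tested.

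Among differences not called, the sign turned for Serpina3g in CD4 against CD8 T cells (0.78 among cells without Mki67 or Top2a, -0.91 to 0.26 without a library), in NK against CD8 T cells (-0.018 by DESeq2, -0.027 without the filter, -0.0051 without the library block, -0.066 with upper-quartile factors, -0.44 to 0.37 without a library). It turned for Dscam in Treg against CD8 T cells (0.012 by DESeq2, 0.37 among cells without Mki67 or Top2a, -0.47 to 0.61 without a library), Treg against CD4 T cells (-0.50 to 0.078 without a library) and NK against CD8 T cells (-0.23 to 1.26 without a library). Of called list genes it turned for Havcr2 in CD4 T cells (-0.15) and Prkcb in Treg (-0.73) without the MHC class II limit. Of 331 refits of called member differences 279 kept the call and 52 lost it, and none turned. Most of these differences are those between cell types within tumors, whose calls are a description. The tally is therefore no measure of support. Alternatives on the MHC class II limit and on Mki67 and Top2a were chosen after seeing the data. The fits of cDC1 with the stricter gate and without cycling cells could not be run for want of cells. Dgki and Exph5 in T cells of control skin were limited by depth, as 3 UMIs over the group was the floor.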
